A study of Mus musculus with 6 samples.

Results

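The respiratory chain of the mitochondrial inner membrane is built from proteins encoded in both genomes of the cell, and the mRNAs of these proteins were examined in the embryonic mouse telencephalon with and without Dicer. Gene names of the nuclear families Nduf, Sdh, Uqcr, Cox4 to Cox8 and Atp5 and of the mitochondrial families mt-Nd, mt-Cytb, mt-Co and mt-Atp were matched in the count tables, which gave 122 names, and 11 names marked as pseudogenes were left out. The remaining 111 genes, of 55471 genes in the tables, comprised 13 mitochondrially encoded subunits and 98 nuclear genes. Among the nuclear genes were 76 core subunits (36 of complex I, 4 of complex II, 8 of complex III, 11 of complex IV and 17 of complex V), 8 assembly factors of the Ndufaf family, the supercomplex factor Cox7a2l, 8 tissue-restricted paralogs and 5 lesser copies.

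RNA was sequenced from the rostral-most telencephalic primordium at E11.5 in 3 control embryo samples, which carry floxed alleles of Dicer and no Cre (DicerF/F, titled wt), and in 3 Rx-Dicer samples, which carry the same floxed alleles together with RxCre. All 6 samples therefore share the floxed Dicer alleles, from a line kept on C57BL/6, whereas the Cre line was kept on CD1, and how these backgrounds were mixed in each library was not given in the sources used here. Cre is driven by regulatory sequences of Rx, and recombination at this age is high in the rostral and ventral telencephalon and low in the neocortex, so a library can hold cells in which Dicer was not deleted. How many embryos went into a library was not given either, and p-values measure only the spread between these samples.

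Complexes I and II pass electrons from NADH and succinate to ubiquinone, complex III passes them to cytochrome c, and complex IV, cytochrome c oxidase, passes them to oxygen. Complexes I, III and IV pump protons, and complex V, ATP synthase, uses the gradient to make ATP. Complex II is encoded wholly in the nucleus, whereas the other complexes hold a catalytic or membrane core with mitochondrially encoded members, surrounded by many small nuclear accessory proteins.

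Libraries held 34471501 to 48373468 counts on genes. Pax6, a transcription factor of forebrain progenitors, ranged from 4749 to 7210.2 normalised counts (counts divided by the DESeq2 size factor of the library) over the 6 libraries. Dicer1 had 6355, 7070.2 and 6270.4 normalised counts in controls 1 to 3 and 4777, 7002 and 4644 in Rx-Dicer 1 to 3, with a DESeq2 adjusted p of 0.567. The library labelled Rx-Dicer 2 stood at the level of the controls for this gene, whose total also counts reads from exons outside the deleted segment. In that library 10.7% of all tallied read pairs lay in no annotated gene, against 6.79 to 8.32% in the other 5. Counts of calls, class medians and the length trend are given with and without it. Microglial markers summed to 41.8 to 52.8 CPM (counts scaled to the same total in each library) in controls and 51.6 to 158 CPM in Rx-Dicer libraries, and their median log2 fold change was 1.06. All 12 were above 0 and 11 had an unadjusted DESeq2 p under 0.05, against 2239 of all 17128 genes tested. Of the 11, Csf1r and Cx3cr1 passed the test after adjustment, while in 0 of the 12 did the groups separate fully. Erythroid markers ranged from 8861 to 23451 CPM, with control 2 and Rx-Dicer 3 far above the other libraries, and none of the 12 passed the test. The part of these cell types in the results below was not tested, and in bulk tissue fewer cells of a type and less RNA per cell cannot be told apart.

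Nuclear core subunit mRNAs were lower in Rx-Dicer samples, by a median of 19.9%, and 14 of the 76 passed the test. The 13 mitochondrially encoded mRNAs were higher by a median of 10.8%, and none of them passed the test in either direction. A gene was called where the DESeq2 adjusted p was under 0.05 and the log2 fold change beyond 0.32 in size, the fold minimum of the study. Of the 105 respiratory chain genes that could be tested, 15 fell and 1 rose, Cox6b2. Across all 17128 genes tested, 1.18% fell, 1.75% rose and 2.93% were called in either direction. All 16 called genes are nuclear, and 14 of the 15 that fell are core subunits. In 50 of the 76 core subunits all 3 Rx-Dicer values lay below all 3 controls, which is 65.8%, against 10.7% of all genes tested. Leaving out the library labelled Rx-Dicer 2 cannot lower such a count. It was again 50, while the share of all genes tested rose to 15.7%, so this repeat is no check on that library. In 0 core subunits did they all lie above, against 8.55% of all genes. Genes of a library share its tissue and its preparation, so these counts do not stand for independent observations. edgeR's quasi-likelihood test called 0 of the 105 genes and 8 genes in all. An unadjusted p under 0.05 was found in 45 of the 76 core subunits with edgeR and in 49 with DESeq2. Over all 17128 genes tested it was found in 2268 with edgeR and in 2239 with DESeq2. Without the library labelled Rx-Dicer 2 DESeq2 called 11 of the 16, no further gene, and the median of core subunits was -0.20 on the log2 scale in place of -0.32. Without Rx-Dicer 1, 32 members were called, and without control 2 or without control 3 only 5.

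The median log2 fold change of the 76 core subunits was -0.32, with 74 below 0 and 2 above, and a range of -0.67 to 0.03. Over all genes tested the median was -0.00087, with 8589 below 0 and 8539 above. By complex the medians of nuclear core subunits were -0.30 for complex I, -0.26 for complex II, -0.36 for complex III, -0.39 for complex IV and -0.32 for complex V. Without the library labelled Rx-Dicer 2 they were -0.17, -0.18, -0.24, -0.25 and -0.21 in the same order, all still below 0. The 13 mitochondrially encoded subunits had a median of 0.15 and a range of -0.03 to 0.30. The gap between both medians was 0.47 on the log2 scale.

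**Figure D1:**
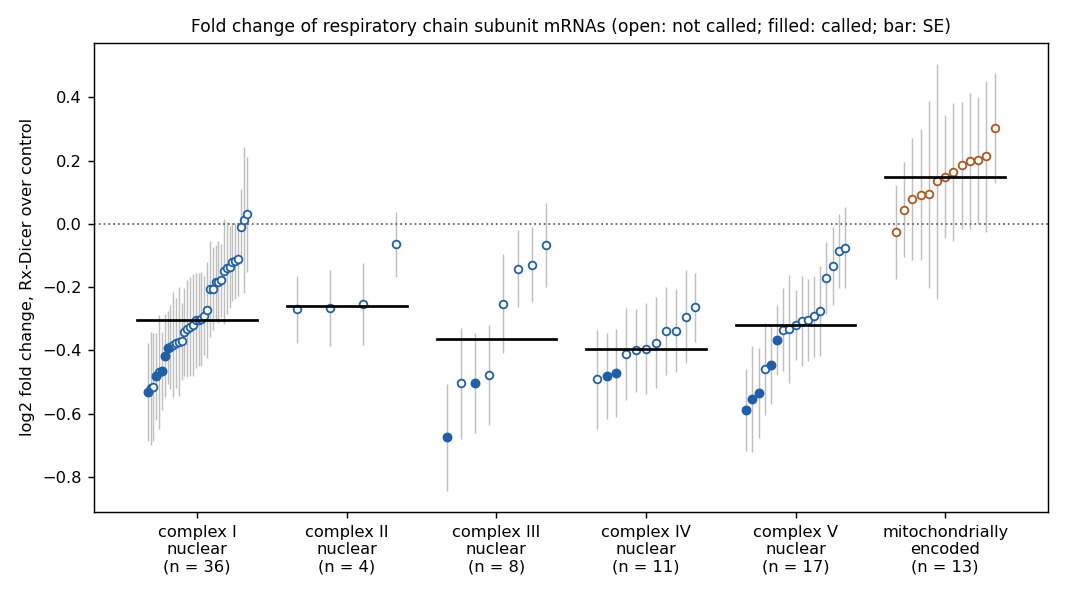
Log2 fold change of Rx-Dicer over control samples (vertical axis) for nuclear core subunits of each complex and for mitochondrially encoded subunits, with bars for the SE of the DESeq2 fit, filled points for called genes, thick lines for class medians and a dotted line for the median of all genes tested. Nuclear subunits of every complex centre between -0.26 and -0.39, whereas the mitochondrially encoded ones centre at 0.15 with wide errors.

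Complex V held the gene with the smallest adjusted p among those that fell. Atp5e, the epsilon subunit of the central stalk (ENSMUSG00000016252, GRCm38 chr2:174461072-174464105, minus strand), had 6564, 6718 and 7020.0 normalised counts in controls 1 to 3 against 4963, 3848 and 4682 in Rx-Dicer 1 to 3. The groups did not overlap, and the library labelled Rx-Dicer 2 was the lowest of the 6. Its mean went from 6767 ± 232 to 4498 ± 579.9 (SD, n = 3 each), which DESeq2 fitted as -0.59 ± 0.13 (SE) on the log2 scale, with an adjusted p of 0.000973. The edgeR adjusted p was 0.114.

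The other complex V subunits that fell belong to the membrane part and the peripheral stalk. Atp5j2 (subunit f) had 7712, 8049 and 8007 normalised counts in controls and 4511 to 6307 in Rx-Dicer samples, a log2 fold change of -0.53 ± 0.14. Atp5mpl, a small membrane subunit, had 3023 to 3381 in controls and 2168 to 2501 in Rx-Dicer samples, a log2 fold change of -0.45 ± 0.12. Atp5k (subunit e) and Atp5j (coupling factor 6 of the peripheral stalk) fell by 0.55 and by 0.37 on the log2 scale, each with a DESeq2 adjusted p of 0.0401. In all 4 genes the 3 Rx-Dicer values lay under the 3 control values. Subunits of the catalytic head had fold changes nearer to 0. Atp5a1, the alpha subunit, had the highest TPM of the nuclear subunits, 771 in controls. TPM are counts per exon length, over all annotated transcripts of a gene, scaled to a fixed total. By counts Atp5b, the catalytic beta subunit, was higher (mean of 50772 against 39337 in controls), over a longer exon length (4237 against 3135 bases). Atp5a1 had 35998 to 41999 normalised counts in controls and 34129.8 to 38705 in Rx-Dicer samples, and these groups overlapped. Atp5b had a log2 fold change of -0.08 ± 0.13 and a DESeq2 adjusted p of 0.918. Neither difference exceeded the spread between replicates.

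Of the 8 nuclear subunits of complex III, the small subunits Uqcrq and Uqcr10 fell. Uqcrq (subunit VII, ENSMUSG00000044894, chr11:53427922-53430831, minus strand) had the lowest fold change of any core subunit. Its normalised counts were 3672, 4361 and 3952 in controls, against 3068, 1964 and 2475 in Rx-Dicer samples. The lowest control stood above the highest Rx-Dicer sample, and DESeq2 gave -0.67 ± 0.17 (SE) on the log2 scale, adjusted p 0.00616. Uqcr10 lay at the edge of the threshold with an adjusted p of 0.0498, and it lost its call in 14 of 19 alternatives. Uqcrh, the hinge protein that sits by cytochrome c1, had a log2 fold change of -0.48 ± 0.16 and an adjusted p of 0.0684. The large core proteins Uqcrc1 and Uqcrc2 and the Rieske iron-sulfur protein Uqcrfs1 had log2 fold changes of -0.14, -0.13 and -0.07, with overlapping groups.

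In complex IV all 11 nuclear core subunits had Rx-Dicer values under all control values, and Cox7b and Cox6b1 fell. Cox6b1, which links the monomers of the enzyme on the outer side of the membrane, had 6400.4, 6651 and 6738 normalised counts in controls, against 5522, 3984 and 4775 in Rx-Dicer samples. Cox7b, a small membrane subunit, had 3924 to 4274 in controls and 2464 to 3221 in Rx-Dicer samples. Their log2 fold changes were -0.47 ± 0.14 and -0.48 ± 0.14 (SE), at DESeq2 adjusted p-values of 0.0348 and 0.0246. Cox7a2 had a log2 fold change of -0.49 ± 0.16 and missed the threshold with 0.0579. Cox7a2l, a relative of Cox7a2 that joins complexes III and IV into supercomplexes, fell by 0.42 on the log2 scale, from a mean of 4935 ± 156 normalised counts in controls to 3696 ± 197 (SD, n = 3 each).

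The single member that rose is a paralog of Cox6b1. Cox6b2 (ENSMUSG00000051811, chr7:4751792-4753094, minus strand) is known as the testis form of this subunit. It had 452, 449 and 503 normalised counts in controls, against 829, 624 and 947 in Rx-Dicer samples. All 3 Rx-Dicer libraries stood above the controls, by 0.77 ± 0.18 (SE) on the log2 scale in the DESeq2 fit, with an adjusted p of 0.0028. edgeR's adjusted p was 0.158, the one alternative of 19 in which the call was lost. Per length, Cox6b2 made up 4.32, 4.14 and 4.55% of the TPM of Cox6b1 and Cox6b2 together in controls 1 to 3 and 8.76, 9.09 and 11.2% in Rx-Dicer 1 to 3. Cox6b1 thus stayed by far the more abundant of the pair in every library.

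**Figure D2:**
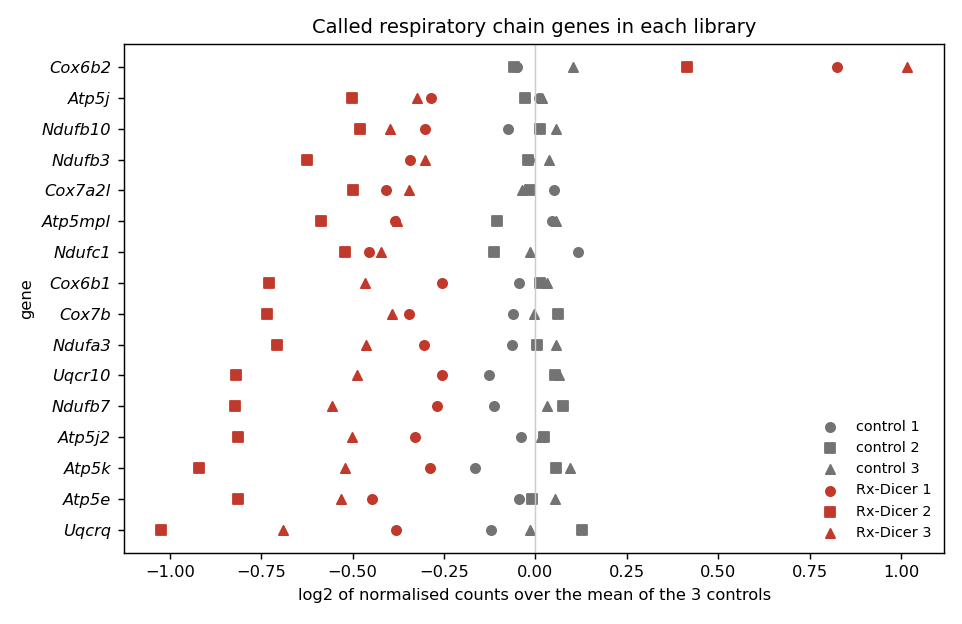
Log2 of the normalised counts of each called gene over the mean of the 3 controls (horizontal axis), with grey symbols for control and red symbols for Rx-Dicer libraries. In every gene the groups are separate, the library labelled Rx-Dicer 2 (red squares) is the farthest below the controls in each of the 15 genes that fell, and Cox6b2 alone lies above them.

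Complex I has the most subunits, and 5 of its 36 nuclear core subunits fell. These are Ndufc1, Ndufa3, Ndufb7, Ndufb10 and Ndufb3, small accessory proteins of the membrane arm. Ndufc1 had 2056, 1752 and 1876 normalised counts in controls, against 1381, 1321 and 1414 in Rx-Dicer samples, the narrowest spread among Rx-Dicer samples of the 5, and fell by 0.47 ± 0.12 (SE) on the log2 scale, at an adjusted p of 0.0124. Ndufb7 had 3630.1 to 4134 in controls and 2221 to 3256 in Rx-Dicer samples, a log2 fold change of -0.53 ± 0.16. For the other 3 the log2 fold changes were -0.48 (Ndufa3), -0.39 (Ndufb10) and -0.42 (Ndufb3), and Ndufb3 was close to the threshold with an adjusted p of 0.0486. Ndufc2, the complex I subunit with the highest TPM, had 4658 ± 127 and 3773 ± 688 normalised counts (SD, n = 3 each) and did not pass, with an adjusted p of 0.356.

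Within complex I, 6 nuclear subunits of the conserved core, which holds the flavin, the iron-sulfur clusters and the quinone site (Ndufv1, Ndufv2, Ndufs1, Ndufs3, Ndufs7 and Ndufs8), had a median log2 fold change of -0.16, and 0 of them were called. The 29 accessory subunits had a median of -0.33, and 5 were called. In 1 of the 6 and in 19 of the 29 all Rx-Dicer values lay under all controls. Ndufs1, the largest of the iron-sulfur subunits, had a log2 fold change of -0.01 ± 0.12. The 6 genes also have longer exons, a median of 2162.5 bases against 1251 for the accessory ones.

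No subunit of complex II, succinate dehydrogenase, was called. Sdha, the flavoprotein, had 10445, 11153 and 10792 normalised counts in controls, against 10132, 10066 and 10766 in Rx-Dicer samples, and these overlapped. Sdhb, the iron-sulfur subunit, had 4745 to 5249.8 and 3766 to 4507, which is -0.27 ± 0.12 (SE) on the log2 scale and missed the threshold at an adjusted p of 0.275. The membrane anchors Sdhc and Sdhd had log2 fold changes of -0.27 ± 0.11 and -0.25 ± 0.13. In Sdhb, Sdhc and Sdhd the groups did not overlap.

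Proteins that help to assemble the chain had medians nearer to 0. Of the 8 Ndufaf genes, assembly factors of complex I, 0 were called, with a median log2 fold change of -0.13. Ndufaf3 was the lowest, with 730.4, 649.8 and 741 normalised counts in controls, 561, 518 and 483 in Rx-Dicer samples and a DESeq2 adjusted p of 0.0747. A further 46 assembly factors outside the name families were found in the tables, of which 45 could be tested, with a median of -0.17. Of these 3 fell (6.67%, against 1.18% of all genes tested). Sdhaf1, which helps to insert iron-sulfur clusters into Sdhb, had a log2 fold change of -0.59. Uqcc2, a factor for cytochrome b, had -0.48, and Dmac1, a factor of the complex I membrane arm, -0.43. In 18 of the 45 (40%) all Rx-Dicer values lay under all controls, against 10.7% of all genes tested. Among the 8 Ndufaf genes this held for 2 (25%). Median exon length was 1802 bases for these 8 and 2570 for the 45, against 1737 for core subunits. Assembly factors and core subunits were not matched in length.

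Among tissue-restricted paralogs other than Cox6b2, levels were low. Cox4i2, the lung form of subunit 4, had 45.1 to 56.2 normalised counts in controls and 22.4 to 60.0 in Rx-Dicer samples. Ndufa4l2, a hypoxia-induced relative of Ndufa4, had 94.9 to 118 in controls and 46.6 to 87.5 in Rx-Dicer samples, with no overlap and a DESeq2 adjusted p of 0.257. Cox7a1, the heart and muscle form, had 14.3 to 37.9 over all libraries and Cox6a2 0 to 2.85. Cox7b2, Cox8b and Cox8c had a count of 0 in every library, where 3 counts would be 0.0620 to 0.0870 CPM. This limit covers counting error only. Markers of skeletal muscle summed to at most 4.84 CPM.

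In all 13 mitochondrially encoded mRNAs the values of both genotypes overlapped. mt-Co1, subunit 1 of complex IV and the most highly counted member, had 248319, 190718 and 204529 normalised counts in controls 1 to 3 and 180652, 211159 and 240166 in Rx-Dicer 1 to 3. mt-Cytb, cytochrome b of complex III, had 117008 to 144024 in controls and 110701 to 154138 in Rx-Dicer samples. Control 1 and Rx-Dicer 3 were the highest in each, and the groups overlapped. mt-Nd1, mt-Nd2 and mt-Nd5, membrane subunits of complex I, had log2 fold changes of 0.08 ± 0.19, 0.20 ± 0.20 and 0.15 ± 0.19 (SE). mt-Nd6, the one mRNA of the set that is read from the other strand, had the highest value, 0.30 ± 0.17, with 3203 to 3656 normalised counts in controls and 3152 to 5160.1 in Rx-Dicer samples and a DESeq2 adjusted p of 0.483. Without Rx-Dicer 1 mt-Nd6 was called, with 0.47 and an adjusted p of 0.0376, the one mitochondrial mRNA called in any fit that left out a sample.

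Control 1 was the highest library for 5 and Rx-Dicer 3 for 8 of the 13 mitochondrial mRNAs, and control 2, control 3 and Rx-Dicer 1 were the lowest for all 13. The mitochondrial rRNAs mt-Rnr1 and mt-Rnr2, which are transcribed from the same strand as most of these mRNAs, were also higher in control 1, Rx-Dicer 2 and Rx-Dicer 3 than in the other 3 libraries. mt-Rnr1 took 0.0350, 0.0168 and 0.0213% of counts in controls 1 to 3 and 0.0212, 0.0368 and 0.0364% in Rx-Dicer 1 to 3. Their log2 fold changes were 0.36 ± 0.25 and 0.23 ± 0.19, and neither was called. Without Rx-Dicer 3 the median of the 13 mRNAs was -0.02 on the log2 scale, and without control 1 it was 0.36.

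Summed over genes, the mitochondrial mRNAs took 1.64, 1.16 and 1.27% of counts in controls 1 to 3 and 1.19, 1.47 and 1.62% in Rx-Dicer 1 to 3. The nuclear core subunits together took 0.993, 1.05 and 1.06% in controls, against 0.953, 0.791 and 0.886% in Rx-Dicer samples. For the nuclear sum the groups did not overlap, whereas for the mitochondrial sum they did. The ratio of mitochondrial to nuclear counts was 1.65, 1.11 and 1.19 in controls, against 1.24, 1.86 and 1.83 in Rx-Dicer samples. The ratio overlapped too, since control 1 exceeded Rx-Dicer 1.

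**Figure D3:**
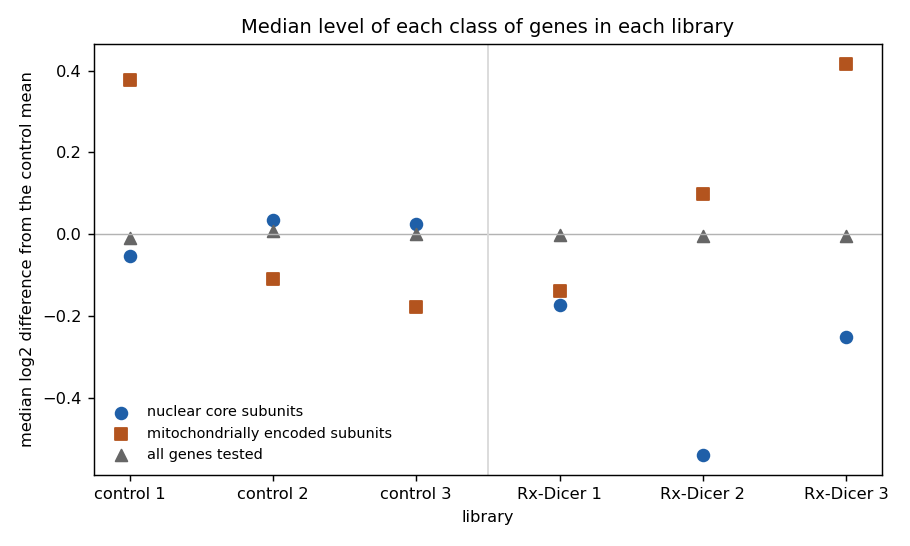
Median log2 difference from the control mean (vertical axis) in each library for the 76 nuclear core subunits (circles), the 13 mitochondrially encoded subunits (squares) and all genes tested (triangles). Nuclear subunits lie at -0.17, -0.54 and -0.25 in Rx-Dicer 1 to 3, while mitochondrial ones are highest in control 1 (0.38) and Rx-Dicer 3 (0.42).

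The library labelled Rx-Dicer 2 was the lowest for 72 of the 76 nuclear core subunits. Relative to the control mean their median stood at -0.05, 0.03 and 0.03 in controls 1 to 3 and at -0.17, -0.54 and -0.25 in Rx-Dicer 1 to 3, on the log2 scale. Each complex followed this order, for example -0.22, -0.65 and -0.33 for complex IV. All 3 Rx-Dicer libraries were thus below all 3 controls.

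The fold change of a subunit went with the length of its exons. Over the 76 core subunits Pearson's r between log2 fold change and log2 exon length was 0.49 and Spearman's rho 0.50, a description across genes that share the same libraries. Other short genes were also lower in Rx-Dicer samples. Protein-coding genes with at most 1000 bases of exon had a median log2 fold change of -0.21 (291 genes), and the 17 subunits of this length had -0.42. Between 1000 and 2000 bases the medians were -0.14 for 1431 genes and -0.33 for 29 subunits, and between 2000 and 4000 bases they were -0.04 for 4272 genes and -0.26 for 19 subunits. Above 4000 bases they were 0.05 for 8137 genes and -0.17 for 11 subunits. In each class of this exon length the subunits were lower than the class as a whole. Exon length here joins the exons of all annotated transcripts of a gene, so it can exceed the length of its mRNA. Atp5g3, for example, had 2181 bases of exon and a longest transcript of 862. Ndufb7, the 1 subunit above 4000 bases that was called, had 4522 bases of exon and a longest annotated transcript of 4435, with a longest 3′ UTR of 61. Subunits and other genes were not matched by mRNA length. Without the library labelled Rx-Dicer 2 the medians of the 4 classes, from short to long, were -0.31, -0.22, -0.17 and -0.10 for subunits and -0.12, -0.09, -0.01 and 0.04 for protein-coding genes, and Pearson's r was 0.40.

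The short protein-coding genes stood apart most in the library labelled Rx-Dicer 2. Genes of at most 1000 bases had a median of -0.47 there, against -0.13 and -0.10 in Rx-Dicer 1 and 3 and -0.04 to 0.02 in controls. Core subunits have a median exon length of 1737 bases, against 4522 for protein-coding genes tested, and a similar GC content (50.1 and 49.9%). Each library was then corrected for this exon length and for GC content. After this, the core subunits had a median of -0.27 and protein-coding genes of at most 1000 bases -0.07, and 9 members were called. The part of RNA quality or fragment size in this trend was not tested.

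**Figure D4:**
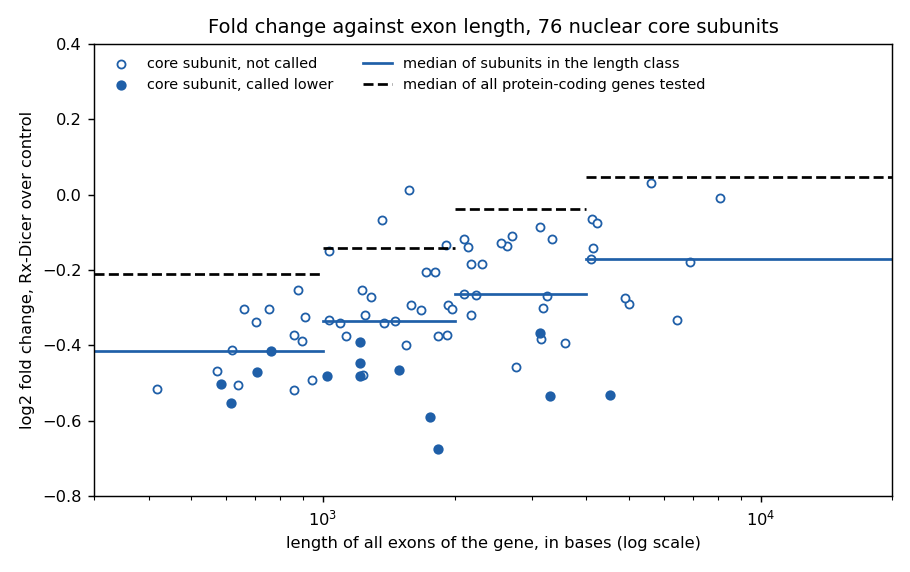
Log2 fold change of each of the 76 nuclear core subunits (vertical axis) against the summed length of its exons (horizontal log axis), with medians per length class for the subunits (solid lines) and for all protein-coding genes tested (dashed lines). Both medians rise with length, and the subunits lie below the dashed line in each class, at -0.42 against -0.21 for the shortest and -0.17 against 0.05 for the longest.

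Several mitochondrial mRNAs have a near-identical copy in a stretch of the mouse nuclear genome on chromosome 1, and read pairs that align to more than 1 place were not assigned to a gene. How many pairs each gene lost in this way was not measured. The share of 100-base windows of the transcript that also occur in a transcript of another gene was 99.9% for mt-Co3 (copy Gm28437), 99.5% for mt-Co2 (copy Gm28661) and mt-Atp6 (Gm10925), 98.5% for mt-Nd4l (Gm10222), 97.6% for mt-Nd3 (Gm28438), 60.8% for mt-Nd4 (Gm28439) and 30.8% for mt-Co1 (Gm29216). It was 3.19% for mt-Nd2 and 0 for the others. The first 100 bases of mt-Co2 are shown with the same stretch of its nuclear copy, with no base in capitals because none differs.
mt-Co2, chrM:7013-7112, plus strand: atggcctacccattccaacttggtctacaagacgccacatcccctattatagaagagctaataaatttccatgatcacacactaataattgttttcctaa
Gm28661, chr1:24615466-24615565, minus strand: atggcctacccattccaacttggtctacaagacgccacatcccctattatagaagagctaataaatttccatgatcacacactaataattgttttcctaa
Reads of 100 bases from this stretch cannot be told apart. mt-Co2 had 2634 ± 794 normalised counts in controls (SD, n = 3) and mt-Co1, its partner in the core of complex IV, 214522 ± 30073. Gm28661 itself had 495.997 to 766 normalised counts in controls and 498 to 686 in Rx-Dicer samples. Levels of the 5 mRNAs with over 90% of windows shared are therefore uncertain. mt-Atp8 also had few counts (35.7 to 58.6 in controls). It overlaps mt-Atp6 on chrM (7766 to 7969 and 7927 to 8607), pairs that overlap both genes were tallied as ambiguous, and the part of its sequence that lies between annotated copies on chromosome 1 was not examined. The 7 mitochondrial mRNAs with under 50% of windows shared had a median log2 fold change of 0.13, and the 6 with more had 0.17.

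**Figure D5:**
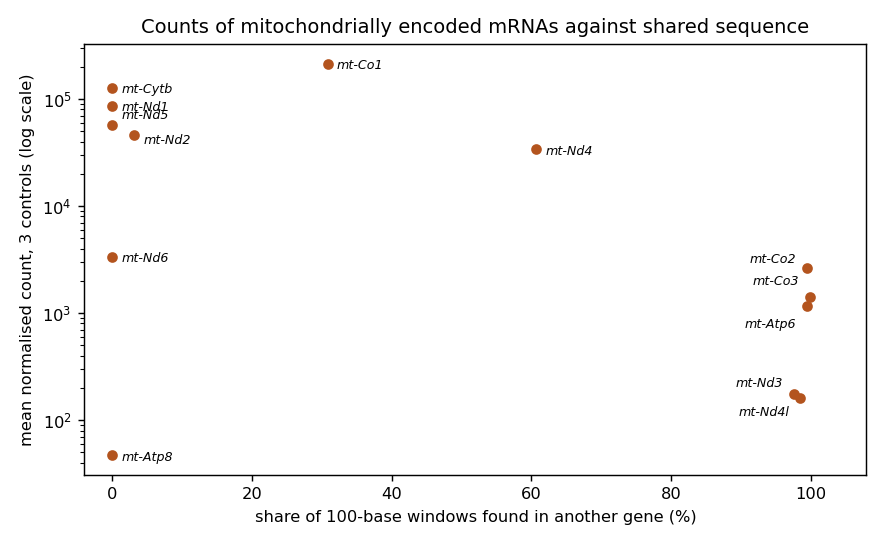
Mean normalised count of each mitochondrially encoded mRNA over the 3 controls (vertical log axis) against the share of its 100-base windows that occur in another gene's transcript (horizontal axis, percent). The 5 mRNAs with over 90% shared lie at 162 to 2634, below the 6 mRNAs from mt-Nd4 (33792) to mt-Co1 (214522), while mt-Nd6 (3376) and mt-Atp8 (47.1) are low with no window shared.

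Promoters of nuclear subunits are known for sites of NRF1, of ETS factors such as GABP (NRF2) and of YY1, and their words were searched on both strands from 250 bases before to 50 bases after the gene start (RefSeq, GRCm38.p6). Of the 98 nuclear members 77 were found in the table, 64 of them core subunits. The NRF1 core GCGCATGCG was present in 8 of 64 (12.5%), against 3.76% of 11769 tested genes with a promoter in the table and 1.95% of all 27025 promoters. The YY1 word AAGATGGCG was present in 7 (10.9%), against 3.15 and 1.64%, and the ETS word CCGGAAGT in 5 (7.81%), against 8.31 and 4.31%. At least 1 of the 3 was found in 19 (29.7%), against 14.3% of tested genes. The NRF1 core overlaps its own reverse complement by all but one letter, so a site often matches on both strands.

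Among the 12 core subunits that fell and have a promoter in the table, 4 held a word. The windows of these 4 are shown first, with the word in capitals. Those of 3 subunits that were not called follow as examples, which were not picked by a rule.
Ndufc1 (YY1 word), chr3:51408915-51408943, minus strand: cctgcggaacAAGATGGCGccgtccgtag
Atp5j (YY1 word), chr16:84835046-84835074, minus strand: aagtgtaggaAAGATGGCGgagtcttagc
Atp5j2 (YY1 word), chr5:145191500-145191528, minus strand: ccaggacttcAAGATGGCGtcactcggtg
Atp5k (NRF1 core), chr5:108434431-108434459, minus strand: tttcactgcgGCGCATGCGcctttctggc
Uqcrc1 (NRF1 core), chr9:108936668-108936696, plus strand: actccgctctGCGCATGCGcagcgcggct
Ndufs7 (YY1 word), chr10:80249463-80249491, plus strand: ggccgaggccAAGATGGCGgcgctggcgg
Ndufa9 (YY1 word), chr6:126849097-126849125, minus strand: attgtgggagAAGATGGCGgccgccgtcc
The YY1 word of Atp5j2 starts 23 bases after the gene start and that of Ndufs7 24 bases after it. Their log2 fold changes were -0.53 ± 0.14 and -0.21 ± 0.15 (SE). The other uncalled examples, Uqcrc1 and Ndufa9, had -0.14 and -0.12. Further uncalled subunits with a word were lower, such as Ndufs6 (YY1 word, -0.39 ± 0.13) and Uqcr11 (NRF1 core and ETS word, -0.50 ± 0.17). Whether fold change goes with a word was not tested. A match is a description of these letters and not a measured site. mRNAs of the factors themselves were not called, with log2 fold changes of -0.05 ± 0.11 for Nrf1, 0.15 ± 0.12 for Gabpa and 0.05 ± 0.11 for Yy1 (SE). Of 11 listed nuclear regulators, which include the coactivator Ppargc1a (0.01 ± 0.17), 0 were called, with a median of 0.05. Across all genes tested 2.93% were called, so 0 of 11 is near that share.

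Dicer makes mature miRNAs, of which the let-7 family is the one the study follows. The 3′ UTRs of core subunits are short, with a median of 202 bases against 1216 over 14061 tested genes with an annotated UTR (GENCODE, GRCm38). The word CTACCTC, which pairs with bases 2 to 8 of let-7, was found in 1 of the 76 (1.32%), against 1512 of the 14061 (10.8%). The miRNA (RefSeq, seed in capitals) and the one core subunit site (match in capitals) are shown.
mmu-let-7a-5p: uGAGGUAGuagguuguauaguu
Cox7b, chrX:106022184-106022212, plus strand: cttactgccctCTACCTCgtggttatatt
This subunit, Cox7b, is among those that fell.

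Other mitochondrial genes gave a context for these values. Of 22 genes of electron carriers and their synthesis, which include cytochrome c (Cycs, -0.28 ± 0.13, SE), 0 were called, with a median log2 fold change of -0.12. Of 29 genes that replicate, transcribe or translate mitochondrial DNA, 0 were called, with a median of -0.01, and Tfam, which packages this DNA, had -0.03 ± 0.12. Of 17 genes of the citric acid cycle 0 were called, with a median of -0.04, and of 16 genes of the outer membrane and protein import 0 were called, with a median of -0.06. Of 16 hypoxia response genes 0 were called, with a median of 0.06. Across all genes tested 2.93% were called in either direction, so 0 calls in lists of this size do not set them apart. edgeR's test also called 0 genes of these lists. The lists were not matched to the core subunits in exon length, whose median is 1737 bases. In the order above their medians were 4078, 3696, 3988, 3234.5 and 3550 bases.

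Markers of the cells of the primordium moved with the genotype in part. Of 10 progenitor markers Fabp7 and Sox9 fell, with log2 fold changes of -0.76 and -0.52. The list had 6 genes below 0 and 4 above, up to 0.22, and a median of -0.16. Of 12 neuronal markers, 10 below 0 and 2 above, Stmn3 fell, with -0.61. Of 7 telencephalic markers Six3 and Otx2 rose, with 1.27 and 0.78, and Pax6 fell, with -0.43. Across all genes tested 1.18% fell and 1.75% rose. Neuronal markers summed to 1869 to 2532 CPM in controls and 1583 to 2245 CPM in Rx-Dicer samples, and progenitor markers to 4608 to 4788 CPM and 4113 to 4725 CPM. Endothelial, pericyte and mesenchymal markers summed to ranges that overlapped between genotypes, with 1 gene called, Foxd1. The part of cell composition in the lower nuclear subunit mRNAs was not tested.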

How the data were processed

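RNA-seq was performed by the authors on 3 control and 3 Rx-Dicer samples with a directional kit, in pairs of 100 bp. The authors deposited raw read counts for each Ensembl gene, made with Trim Galore 0.6.5, HISAT2 and HTSeq 0.12.4 (union mode, reverse strand) on GRCm38.p6, and in which read pairs with several alignments or several genes were tallied apart. Each sample had 2 files, treated as repeat runs and summed. Chi-square per degree of freedom was 1.13 to 1.52 between runs of a sample and 22.5 to 32.6 between samples of a group. A further 5.62 to 6.65% of pairs were not uniquely aligned.

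All genes were fitted with DESeq2 1.42.0 (R 4.3.3, Wald test, genotype as the only term, unshrunken log2 fold change), and p was adjusted over the whole table. Exon length, also for TPM, was the union of exons over all transcripts of the GENCODE gene model. edgeR 4.0.16 (genes reaching 10 counts in 3 samples or more), other scalings, filters, thresholds, single runs, a replicate block, a length and GC correction (splines with 5 degrees of freedom) and fits without each sample were alternatives. Restricting members to genes with no shared window, and the overlap count and length classes without Rx-Dicer 2, were chosen after seeing the data.

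Members and lists were chosen with earlier results of these data known. Named by rule were the mitochondrial subunits, every called member, per complex the 3 nuclear subunits with the smallest p and the one with the highest TPM, complex II, the tissue-restricted paralogs, Ndufaf genes with an unadjusted p under 0.05, up to 3 called genes per list, and Dicer1. Other genes were named after their values were seen. Fold changes computed by the study were not used here. The values of 1 core subunit of complex I are not reported here, although counts over its complex include it.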

Additional observations from a re-analysis of the deposited data

Results flagged for a closer look

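Outside the counts on genes, the tally of read pairs that lay in no annotated gene had a median of 8.32% in Rx-Dicer samples, above the highest control at 7.87%. The values were 7.87, 6.79 and 7.19% in controls 1 to 3 and 7.54, 10.7 and 8.32% in Rx-Dicer 1 to 3, so the lowest Rx-Dicer sample lay within the range of the controls. The library labelled Rx-Dicer 2, with the highest share, was also the lowest in 72 of 76 nuclear core subunits. Its part in those values was not tested.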

How the results depend on the processing

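Of the 111 members, 16 were called (15 lower, 1 higher, 16 nuclear, 0 mitochondrial). edgeR's quasi-likelihood test gave 0 in each of these classes. The other settings that moved the counts by over 1.5 times were no independent filtering (9 called, 8 lower, 9 nuclear), adjusted p under 0.1 (26, 25 lower, 26 nuclear), the length and GC correction (9, 8 lower, 9 nuclear), the replicate block (5, 4 lower, 5 nuclear), and the replicate block with the length and GC correction (7, 6 lower, 7 nuclear). The causes were not tested. Leaving out 1 sample gave 5 to 32 called, 4 to 30 lower, 1 to 2 higher, 5 to 31 nuclear and 0 to 1 mitochondrial (mt-Nd6 without Rx-Dicer 1), with the fewest without control 2 or without control 3 and the most without Rx-Dicer 1. Samples with the same replicate number had deviations that correlated at 0.19, 0.04 and -0.14, and those with different numbers at -0.18 to 0.17. The study compared mutants with control littermates. With 3 samples per group these values cannot settle whether the numbers mark litters.

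The median of nuclear core subunits stayed below 0 in every setting run, at -0.40 to -0.20 when a sample was left out (-0.40 to -0.17 for complex I, -0.30 to -0.18 for II, -0.45 to -0.24 for III, -0.48 to -0.25 for IV and -0.38 to -0.21 for V, each nearest 0 without the library labelled Rx-Dicer 2). The median of mitochondrial subunits went from -0.02 to 0.36, the difference of medians from 0.32 to 0.72, and the log2 ratio of summed mitochondrial to nuclear counts from 0.21 to 0.51. Named members changed sign in 18 cases over 9 genes, none of them called. Leaving out 1 sample gave -0.0347 to 0.39 for mt-Atp6, -0.0327 to 0.32 for mt-Atp8, -0.13 to 0.091 for mt-Co1, -0.0828 to 0.35 for mt-Co2, -0.0902 to 0.15 for mt-Cytb, -0.11 to 0.27 for mt-Nd1, -0.13 to 0.42 for mt-Nd3 and -0.015 to 0.40 for mt-Nd4, with the highest value without control 1 (mt-Cytb without Rx-Dicer 1) and the lowest without Rx-Dicer 3 (mt-Atp8 and mt-Co2 without control 3). Cox4i2 went from -0.57 to 0.062, the latter without the library labelled Rx-Dicer 2. With the first run alone mt-Atp8 was -0.0687. Calls of named members were lost in 99 cases over 16 genes and gained in 12 over 5 genes.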
